A study of Homo sapiens with 9 samples.

Results

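Messenger RNA of 10 aldo-keto reductases was followed in undifferentiated Caco-2 cells (uCaco-2) exposed to CoCl2 or to an oxyquinoline derivative. The rows were chosen by symbol: AKR1A1, AKR1B1, AKR1B10, AKR1B15, AKR1C1, AKR1C2, AKR1C3, AKR1D1, AKR7A2 and AKR7A3, 10 of the 60591 symbols in the table. All 10 were present, and 9 of them passed the filter on low counts that kept 15944 genes for testing. AKR1B15 did not pass and is given as counts.

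Caco-2 is an established human colon adenocarcinoma line, so every library stems from a single line of tumour origin. Control cells received fresh medium, CoCl2 cells received medium with 300 μM CoCl2, and OD cells received medium with 5 μM of the oxyquinoline derivative OD 4896-3212. Per the labels, control and CoCl2 medium received 0.5% DMSO to match the solvent of OD, but the OD dose and the stock strength given there imply a lower DMSO share in OD medium, so whether the solvent was matched is uncertain. RNA was taken after 24 h from 3 biological replicates per condition. The study used both agents as chemical activators of the hypoxia-inducible factor (HIF) pathway, and their doses differ, so a comparison of CoCl2 with OD is a comparison of these 2 exposures only.

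Aldo-keto reductases are mostly soluble enzymes that use NADPH to reduce the carbonyl group of aldehydes and ketones to an alcohol. Their substrates include sugars, lipid peroxidation products, retinaldehyde, steroids, prostaglandins and drugs, and in the intestinal epithelium they are part of the defence against reactive carbonyls from food and from oxidised lipids. Several family members, above all those of the AKR1B and AKR1C groups, are known targets of the stress-responsive transcription factor NRF2.

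Total counts per library were 15998136 to 18298190 in control cells, 16286502 to 24209427 with CoCl2 and 16387054 to 19623776 with OD. Values are given as CPM, the usual depth-scaled counts, with library totals multiplied by TMM factors, and these factors were 1.11 to 1.12 in control, 0.770 to 0.795 in CoCl2 and 1.14 to 1.15 in OD libraries. Of 11 intestinal epithelial markers 10 were measured above the filter, CDX1 was at 0 in all 9 libraries, and the summed level of the list was 11500 to 12030 CPM in control, 13953 to 14933 with CoCl2 and 11034 to 11598 with OD. Of 12 non-epithelial markers 4 had at most 3 counts in any library, and their summed level was 58.5 to 67.5, 73.3 to 74.3 and 66.8 to 72.6 CPM in the same order. Summed levels of 8 hepatocyte markers were 1031 to 1084, 1065 to 1132 and 1134 to 1186 CPM. This sum is mostly APOA1 and APOB, with control means of 547 and 417 CPM. With CoCl2, APOB (log2 fold change -2.10) was called lower and 0 hepatocyte markers were called higher. Both epithelial and non-epithelial sums were higher in CoCl2 libraries than in control libraries without overlap. The epithelial sum is mostly KRT8 and KRT18, and 0 epithelial markers were called higher with CoCl2, while VIL1 (log2 fold change -2.45) and KRT20 (-1.44) were called lower. The largest part of the non-epithelial sum is LYZ, with a mean of 35.9 CPM in control and 51.5 CPM with CoCl2 (0.53, not called). Of the non-epithelial markers PDGFRB (-2.31) was called lower and VWF (1.61) higher. The part of these markers in the results was not tested. In bulk RNA, fewer cells of a type and less RNA per cell cannot be told apart.

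A gene was called where edgeR's quasi-likelihood test gave an adjusted p below 0.05 and its log2 fold change exceeded 1 in either direction. With CoCl2, 7 of the 9 tested members were called, while the rule called 43.2% of all tested genes. AKR1B1, AKR1B10, AKR1C1, AKR1C2 and AKR1C3 were the 5 that rose (19.9% of all tested genes did), and AKR7A2 and AKR7A3 were the 2 that fell (23.4% of all tested genes). With OD, 2 of 9 were called, against 13.3% of all tested genes. They were AKR1C1 and AKR1C2, both higher (9.09% of all tested genes), and 0 members were called lower (4.16%). Between CoCl2 and OD, 6 of 9 were called, against 41.3% of all tested genes, with AKR1B1, AKR1B10, AKR1C1, AKR1C2 and AKR1C3 higher in CoCl2 (17.5%) and AKR7A2 lower (23.8%).

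The adjusted p without the fold threshold was passed by 7 members with CoCl2, 5 higher and 2 lower, where 83.2% of all tested genes passed, 40.4% higher and 42.8% lower. It was passed by 6 members with OD, 5 higher and 1 lower, where 65.6% of all tested genes passed, 32.3% higher and 33.3% lower. Between CoCl2 and OD it was passed by 8 members, 6 higher and 2 lower, where 83.5% passed, 40.2% higher and 43.2% lower. Libraries of the conditions did not overlap for 7 members with CoCl2 (83.4% of all tested genes), 6 with OD (68.0%) and 8 between CoCl2 and OD (83.8%). By number alone, the shares passing in either direction and the shares without overlap were near those of all genes. In each comparison more of the passing members were higher than lower, while among all tested genes slightly more were lower. The median log2 fold change of the 9 was 1.36 with CoCl2 and 0.15 with OD, beside -0.05 and -0.01 for all tested genes.

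**Figure D1:**
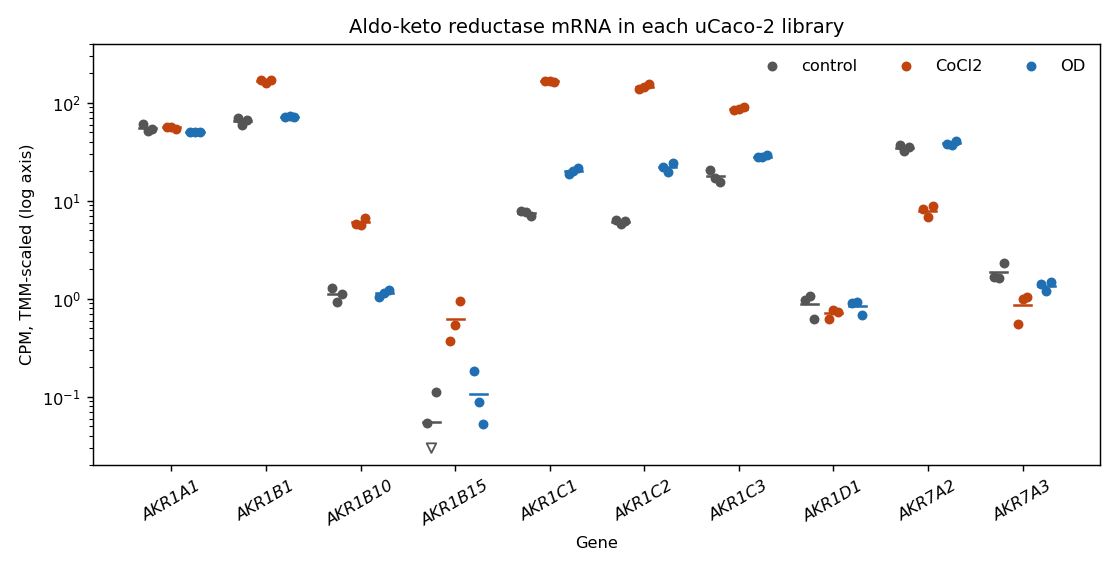
Points show the CPM of each aldo-keto reductase in each of 9 libraries on a log axis, and bars show the mean of 3 replicates. The open triangle marks the control library with 0 counts of AKR1B15. The CoCl2 points of AKR1C1 and AKR1C2 lie between 138 and 169 CPM, above all OD points (19.0 to 24.2 CPM) and all control points (5.78 to 7.96 CPM), and those of AKR7A2 lie below.

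The AKR1C genes lie side by side on chromosome 10, and their near-identity limits how reads are assigned. On GRCh38, AKR1C1 spans chr10:4963253-4983283 on the plus strand, AKR1C2 chr10:4987775-5018031 on the minus strand and AKR1C3 chr10:5035354-5107686 on the plus strand, each with 9 exons in its reference transcript. The coding sequences of AKR1C1 and AKR1C2 were identical at 950 of 969 positions (98.04%), with an unbroken identical stretch of 186 nucleotides. Identity was 91.43% between AKR1C1 and AKR1C3 and 91.02% between AKR1C2 and AKR1C3. Of the 75-nucleotide windows in the coding sequence, the length of the reads, 35.53% of AKR1C1, 40.78% of AKR1C2 and 15.31% of AKR1C3 were also found in a transcript of another gene. Over the whole reference transcript, untranslated parts included, the shares were 16.77%, 36.04% and 12.32% in the same order. Exons of the members overlapped no exon of another gene on either strand. Windows from exon 2 of the first pair, next to each other in the coding sequence, show both situations.
The first is the coding window with the most differences, chr10:4965917-4965991 in AKR1C1 and chr10:5001604-5001678 in AKR1C2, read along each gene's own strand, with the 10 differing bases in capitals.
AKR1C1: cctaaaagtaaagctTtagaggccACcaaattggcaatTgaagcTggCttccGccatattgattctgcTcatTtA
AKR1C2: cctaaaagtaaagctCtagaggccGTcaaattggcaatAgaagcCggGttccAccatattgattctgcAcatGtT
A read from this window tells the copies apart. The window next to it, chr10:4965992-4966066 in AKR1C1 and chr10:5001529-5001603 in AKR1C2, has 0 differences, so that a read from it fits both.
AKR1C1 and AKR1C2: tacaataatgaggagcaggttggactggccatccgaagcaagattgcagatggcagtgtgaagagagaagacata

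**Figure D2:**
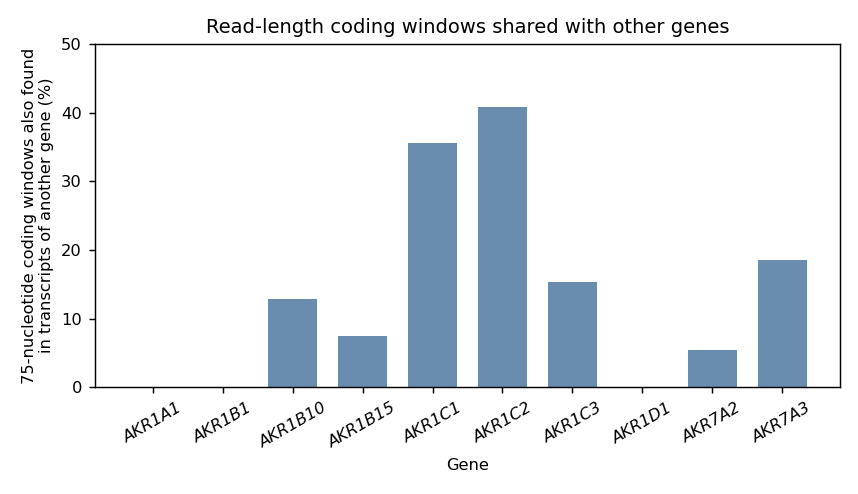
Bars give, for each member, the percentage of 75-nucleotide windows of its coding sequence that also occur in a transcript of another gene. AKR1C2 (40.78%) and AKR1C1 (35.53%) share most, and AKR1A1, AKR1B1 and AKR1D1 share none.

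The largest changes of the family were those of AKR1C1 and AKR1C2. AKR1C1 is the 20α-hydroxysteroid dehydrogenase that inactivates progesterone. It had 7.96, 7.70 and 6.96 CPM in the control libraries, 169, 169 and 165 CPM with CoCl2, and 19.0, 20.1 and 21.5 CPM with OD. No library of one condition reached the level of another. AKR1C1 was 22.2-fold higher with CoCl2 than in control (log2 fold change 4.47, SE 0.067, adjusted p = 4.72e-56) and 2.67-fold higher with OD (1.41, SE 0.083, adjusted p = 1.88e-23). CoCl2 libraries were 8.32-fold above OD libraries (3.06, SE 0.056, adjusted p = 7.25e-51).

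AKR1C2 is a 3α-hydroxysteroid dehydrogenase that inactivates dihydrotestosterone and is also known to bind bile acids. It had 6.35, 5.78 and 6.17 CPM in control, 138, 145 and 156 CPM with CoCl2, and 22.4, 19.8 and 24.2 CPM with OD. Here too the 3 conditions were separate, in the order control, OD, CoCl2. The rise was 24.0-fold with CoCl2 (log2 fold change 4.59, SE 0.075, adjusted p = 6.43e-54) and 3.62-fold with OD (1.86, SE 0.092, adjusted p = 3.80e-27), and CoCl2 exceeded OD by 6.63-fold (2.73, SE 0.060, adjusted p = 9.68e-47). Ordered from the highest log2 fold change, AKR1C2 and AKR1C1 ranked 121 and 133 of 15944 tested genes with CoCl2, and 434 and 820 with OD.

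AKR1C3, the type 5 17β-hydroxysteroid dehydrogenase that also makes prostaglandin F, had 20.9, 17.1 and 15.5 CPM in control. It had 84.9, 86.1 and 92.0 CPM with CoCl2 and 27.9, 27.9 and 29.3 CPM with OD. The 3 conditions did not overlap, but the steps were smaller than those of AKR1C1 and AKR1C2. AKR1C3 was 4.92-fold higher with CoCl2 (log2 fold change 2.30, SE 0.067, adjusted p = 2.45e-39). With OD it was 1.59-fold higher (0.67, SE 0.074, adjusted p = 4.97e-12), past the adjusted p but under the fold threshold, and CoCl2 stood 3.09-fold above OD.

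Because reads that fit several copies cannot be placed from the sequence alone, the copies were also summed. The 3 genes together gave 35.2, 30.5 and 28.7 CPM in control, 391, 400 and 413 CPM with CoCl2, and 69.3, 67.8 and 75.0 CPM with OD. The conditions stayed apart. The sum was 12.8-fold higher with CoCl2 (log2 fold change 3.67, SE 0.054, adjusted p = 1.84e-55) and 2.24-fold higher with OD (1.17, SE 0.057, adjusted p = 4.89e-27). AKR1C1 and AKR1C2 alone, summed, were 23.0-fold higher with CoCl2 (4.52) and 3.09-fold higher with OD (1.63).

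The split of reads between AKR1C1 and AKR1C2 differed more from control with OD than with CoCl2. AKR1C2 took 44.8% ± 2.08 (SD, n = 3) of the counts of this pair in control, 46.6% ± 1.85 with CoCl2 and 52.3% ± 2.26 with OD. The difference of OD from control was 7.49 percentage points, with no overlap between libraries, and that of CoCl2 from control was 1.80 points, with overlap. Exact two-sided permutation tests gave p = 0.1 for OD and p = 0.4 for CoCl2 against control, and 0.1 is the smallest p that 3 libraries against 3 allow. AKR1C3 took 56.5% ± 2.61 of the counts of the 3 genes in control, 21.8% ± 0.382 with CoCl2 and 40.2% ± 1.02 with OD. Thus AKR1C3 held the majority of the counted AKR1C reads in control cells only, and each exposure lowered its share without overlap (exact permutation p = 0.1 for both). The split between AKR1C1 and AKR1C2 and the share of AKR1C3 both depend on how reads that fit several copies were counted, which is not given. AKR1C3 shares fewer coding windows (15.31%) than AKR1C1 (35.53%) and AKR1C2 (40.78%).

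**Figure D3:**
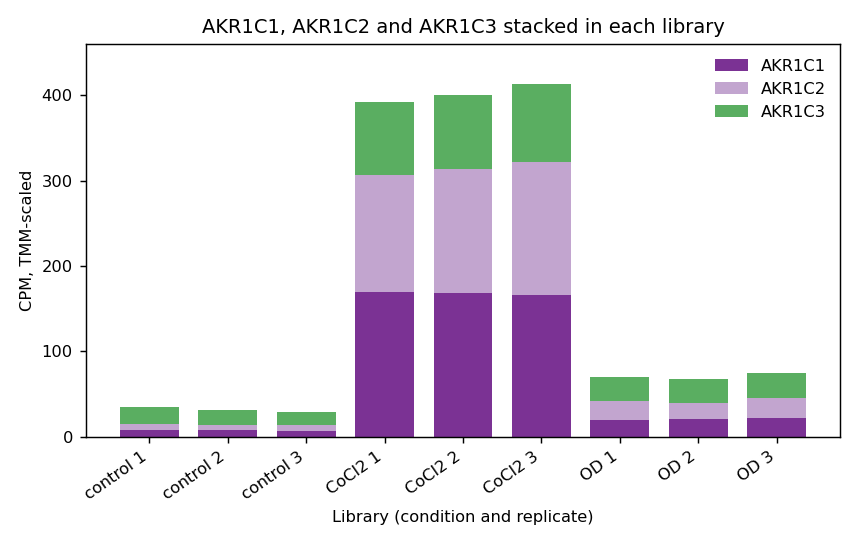
Stacked bars give the CPM of AKR1C1, AKR1C2 and AKR1C3 in each of 9 libraries, from 0. The stacks reach 28.7 to 35.2 CPM in control, 391 to 413 CPM with CoCl2 and 67.8 to 75.0 CPM with OD, and the AKR1C3 part goes from the larger part of the stack in control to 21.8% on average with CoCl2.

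The stretches before the transcription starts of AKR1C1 and AKR1C2 are alike as well. RefSeq promoter windows, which run from 250 bases before a start to 50 bases after it on GRCh38.p14, were found for 8 of the 10 members, 11 windows in all. The windows of AKR1C1 and AKR1C2 were 93.5% identical, and those of AKR1C3 were 69.4% to 73.5% identical to either. Both strands were searched for the antioxidant response element core TGACNNNGC, the hypoxia response element cores ACGTG and GCGTG, the AP-1 motif TGANTCA and the heat shock motif GAANNTTC, which occur in 13.35%, 21.41%, 36.54%, 7.71% and 6.77% of 35116 promoter windows. Where ACGTG is part of CACGTG, it was counted on both strands. AKR1C1 and AKR1C2 each held 1 match, to GAANNTTC, and neither window of AKR1C3 held any. The 250 bases before the starts are shown for this pair, which changed together, with the match in capitals: chr10:4963165-4963414 on the plus strand and chr10:5003858-5004107 on the minus strand.
AKR1C1 promoter: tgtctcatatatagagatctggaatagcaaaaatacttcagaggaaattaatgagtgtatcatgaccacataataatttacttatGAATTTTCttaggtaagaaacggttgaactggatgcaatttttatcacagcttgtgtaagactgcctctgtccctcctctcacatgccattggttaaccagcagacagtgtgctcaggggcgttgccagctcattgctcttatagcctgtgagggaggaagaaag
AKR1C2 promoter: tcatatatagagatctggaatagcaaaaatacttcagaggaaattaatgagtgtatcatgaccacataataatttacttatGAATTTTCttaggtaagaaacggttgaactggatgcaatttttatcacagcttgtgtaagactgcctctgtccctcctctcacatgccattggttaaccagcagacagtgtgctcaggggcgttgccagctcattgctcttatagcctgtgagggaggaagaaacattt
A match describes letters only, and no factor's binding was measured here.

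The AKR1B genes form a cluster on chromosome 7. AKR1B1 (chr7:134442356-134459284, minus strand) is aldose reductase, which turns glucose into sorbitol in the first step of the polyol pathway. It had 69.6, 60.2 and 66.6 CPM in control, 171, 161 and 171 CPM with CoCl2, and 72.1, 73.2 and 72.2 CPM with OD. CoCl2 libraries were above all others, and OD libraries lay narrowly above the control libraries. The rise with CoCl2 was 2.57-fold (log2 fold change 1.36, SE 0.049, adjusted p = 5.81e-35), but 0.85 on the log2 scale, under the fold threshold, when libraries were scaled by total counts alone, a scaling that moved the median of all tested genes from -0.05 to -0.55. With OD the difference was 0.15 (SE 0.051, adjusted p = 0.00892), which was not called.

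AKR1B10 (chr7:134527567-134541412, plus strand), a reductase of retinaldehyde and lipid aldehydes known from the intestinal epithelium, was counted far less often. It had 24, 19 and 20 counts in control, 94, 73 and 128 with CoCl2, and 23, 26 and 23 with OD. Only the CoCl2 libraries stood apart. The rise with CoCl2 was 5.49-fold (log2 fold change 2.46, SE 0.19, adjusted p = 5.12e-19). For OD it was 0.04, with a 95% confidence interval of -0.47 to 0.54 (adjusted p = 0.910).

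AKR1B15 (chr7:134549110-134579875, plus strand), a close relative of AKR1B10 with 85.85% identity in the coding sequence, was barely detected. It had 1, 0 and 2 counts in control, 6, 7 and 18 with CoCl2, and 4, 2 and 1 with OD. The summed counts of the CoCl2 libraries, scaled to the summed effective library sizes, were 12.2 times those of control, with an exact 95% interval of 3.81 to 62.4 that covers counting error only. The corresponding ratio for OD was 2.09 (0.478 to 12.5), which leaves the direction undetermined. Without the count filter edgeR gave AKR1B15 a log2 fold change of 3.38 with CoCl2 (adjusted p = 4.56e-06), and DESeq2 on 9 libraries gave 3.56 (adjusted p = 0.00245). Of its coding windows 7.52% were shared with AKR1B10, and AKR1B10 shared 12.93% of its own with AKR1B15 or the pseudogene AKR1B10P1.

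The AKR7A genes moved the other way. AKR7A2 (chr1:19303965-19312144, minus strand) reduces succinic semialdehyde, a product of the neurotransmitter GABA, and the dialdehyde form of aflatoxin. It had 37.6, 32.0 and 35.6 CPM in control, 8.27, 6.81 and 8.81 CPM with CoCl2, and 38.1, 37.5 and 41.0 CPM with OD. All CoCl2 libraries were far below the rest, and the lowest OD library was slightly below the highest control library. AKR7A2 was 4.33-fold lower with CoCl2 than in control (log2 fold change -2.12, SE 0.087, adjusted p = 4.11e-32) and 4.80-fold lower than with OD (-2.26, SE 0.085, adjusted p = 3.69e-34). With OD against control the log2 fold change was 0.15 (SE 0.064, adjusted p = 0.0373), which was not called.

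AKR7A3 (chr1:19282573-19288770, minus strand), a second reductase of aflatoxin aldehyde, had 31, 33 and 41 counts in control, 9, 13 and 20 with CoCl2, and 31, 27 and 28 with OD. The CoCl2 libraries were the lowest in CPM, from 0.560 to 1.05 against 1.62 to 2.30 in control. The fall with CoCl2 was 2.11-fold (log2 fold change -1.08, SE 0.27, adjusted p = 0.000251). This call rested on single libraries: without control replicate 3 the log2 fold change was -0.91 and without CoCl2 replicate 1 it was -0.83, both under the fold threshold. With OD it was -0.44 (SE 0.23, adjusted p = 0.0826). AKR7A3 shared 18.5% of its coding windows with other genes, mainly AKR7L, and AKR7A2 shared 5.48%.

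AKR7A2 had the promoter window with the most motif matches among the members, 3 to TGACNNNGC and 1 each to ACGTG and GCGTG. Its 250 bases before the start are shown since this gene fell where the AKR1C genes rose, at chr1:19312147-19312396 on the minus strand, with matches on either strand in capitals.
AKR7A2 promoter: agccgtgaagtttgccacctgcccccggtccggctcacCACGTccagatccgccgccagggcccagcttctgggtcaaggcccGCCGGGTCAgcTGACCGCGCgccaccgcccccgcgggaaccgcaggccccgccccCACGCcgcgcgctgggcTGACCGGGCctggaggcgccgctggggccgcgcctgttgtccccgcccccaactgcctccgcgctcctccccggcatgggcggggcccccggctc
AKR1A1 held 3 matches to ACGTG, of which 2 overlap on opposite strands, and each window of AKR1B1 and AKR7A3 held 1 to GCGTG. AKR1D1 held none. AKR1B10 and AKR1B15 had no entry.

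AKR1A1 and AKR1D1 were not called in any comparison. AKR1A1 (chr1:45550543-45570049, plus strand), an aldehyde reductase of broad use in many tissues, had 61.4, 51.8 and 53.6 CPM in control, 57.5, 57.2 and 54.1 CPM with CoCl2, and 50.4, 50.7 and 50.4 CPM with OD. Control and CoCl2 libraries overlapped, and OD libraries lay just below both. The log2 fold change with CoCl2 was 0.02 (95% confidence interval -0.10 to 0.13, adjusted p = 0.806), and its sign changed with the scaling, to -0.49 by library size alone. With OD it was -0.14 (SE 0.056, adjusted p = 0.0274).

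AKR1D1 (chr7:138002324-138118305, plus strand) is the steroid 5β-reductase of bile acid synthesis in liver. It had 18, 22 and 11 counts in control, 10, 10 and 14 with CoCl2, and 20, 21 and 13 with OD, and the 3 conditions overlapped. CoCl2 against control gave -0.34 on the log2 scale (SE 0.33, adjusted p = 0.337), and OD gave -0.07 (SE 0.30, adjusted p = 0.841).

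**Figure D4:**
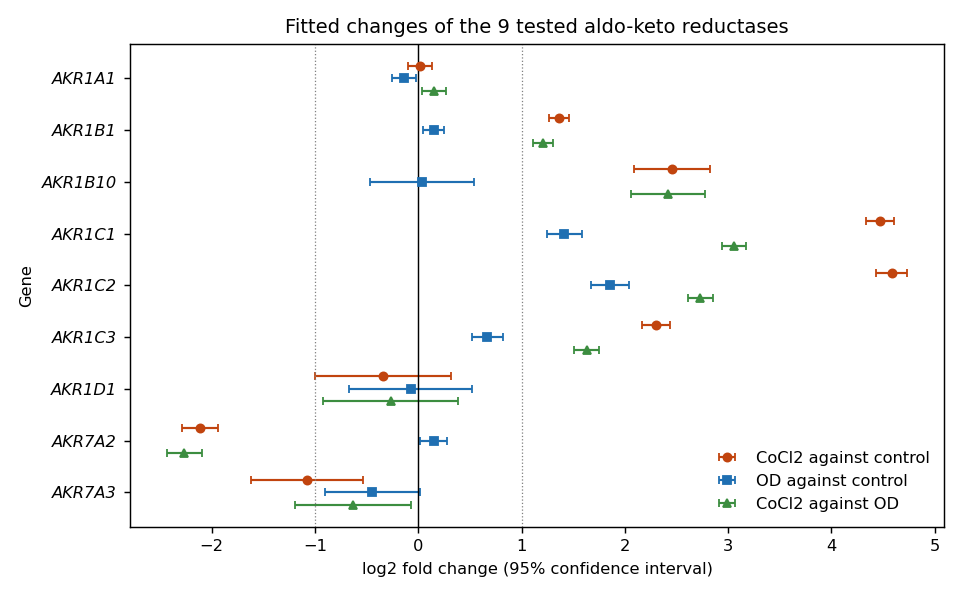
Markers give the log2 fold change and bars its 95% confidence interval for the 9 tested members in 3 comparisons, and dotted lines mark a log2 fold change of 1 in either direction. AKR1C1 and AKR1C2 lie past 4 with CoCl2 and between 1 and 2 with OD, AKR7A2 lies near -2 with CoCl2, and AKR1A1 and AKR1D1 stay within 1 of no change.

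Levels of different genes were compared as CPM per kilobase of coding sequence. In control cells the order was AKR1B1 (69.0 ± 5.10, SD, n = 3), AKR1A1 (57.0 ± 5.26), AKR7A2 (32.6 ± 2.66), AKR1C3 (18.4 ± 2.84), AKR1C1 (7.78 ± 0.539), AKR1C2 (6.30 ± 0.297), AKR7A3 (1.87 ± 0.383), AKR1B10 (1.18 ± 0.190), AKR1D1 (0.908 ± 0.246) and AKR1B15 (0.0536 ± 0.0544). Of neighbours in this order, only AKR1B10 and AKR1D1 overlapped between libraries. With CoCl2, AKR1B1 (177 ± 6.13) and AKR1C1 (173 ± 2.03) overlapped at the top, AKR1C2 (151 ± 9.58) and AKR1C3 (90.5 ± 3.94) came next, and AKR1A1 (57.7 ± 1.91) followed. AKR7A2 (7.39 ± 0.961) and AKR1B10 (6.40 ± 0.596) then overlapped, as did AKR7A3, AKR1D1 and AKR1B15 at the bottom. With OD the order was that of control except that AKR1C2 (22.8 ± 2.25) came before AKR1C1 (20.8 ± 1.26), and these overlapped. These orders hold per kilobase of coding sequence only. Per kilobase of the whole reference transcript, which has 6543 nucleotides for AKR1C1, 3215 for AKR1C2, 1186 for AKR1C3 and 1361 for AKR1B1, CoCl2 levels were 123 ± 4.27 for AKR1B1, 73.9 ± 3.22 for AKR1C3, 45.5 ± 2.89 for AKR1C2, 39.99 ± 1.32 for AKR1A1 and 25.6 ± 0.301 for AKR1C1. The order of the AKR1C genes was thereby turned around, and AKR1C1 fell from the top to below AKR1A1. In control cells AKR1C1 (1.15) then lay below AKR1C2 (1.90) and AKR7A3 (1.53).

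The messages of the 10 members in all added up to 208, 178 and 189 CPM in control, 635, 633 and 657 CPM with CoCl2, and 233, 233 and 242 CPM with OD. The total was 3.35 times the control mean with CoCl2 and 1.23 times with OD, each without overlap (exact two-sided permutation p = 0.1, the smallest possible). AKR1C1, AKR1C2 and AKR1C3 together made up 16.4% ± 1.07 of the members' counts in control, 62.6% ± 0.824 with CoCl2 and 29.9% ± 0.940 with OD. Thus the family's counts were mainly from other members in control and OD libraries and mainly from AKR1C genes in CoCl2 libraries.

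Genes whose profile over the 9 libraries was closest to a called member, by the distance between log2 CPM values centred on the control mean, are named as a description, and the libraries they share set part of this likeness. For AKR1C1 the nearest of the other tested genes were AC008517.1 (distance 0.47, with 0 CPM in control) and GCNT3 (0.66). The distance used log2 CPM with a small added count, which shrinks changes of genes near 0. AC008517.1 had fitted log2 fold changes of 8.52 (CoCl2) and 4.62 (OD), unlike the 4.47 and 1.41 of AKR1C1. For AKR1C2 the nearest were FOS (0.78), AKR1C1 (0.82) and GCNT3 (0.84), so that AKR1C1 was among the nearest of AKR1C2, while AKR1C2 was not among the nearest 3 of AKR1C1. For AKR1C3 they were CASTOR2 (0.25), PLEKHO2 (0.33) and ATG14 (0.35), and for AKR1B1 they were YY1AP1 (0.16), LMNA (0.16) and CHMP4B (0.16). For AKR1B10 they were PSMC4 (0.38), PTPN23 (0.40) and SOD1 (0.40). The nearest to AKR7A2 were B4GALT7 (0.24), RNF170 (0.26) and MYO1A (0.28), and to AKR7A3 they were ZNF696 (0.48), SLC27A4 (0.53) and DIPK1A (0.56).

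Of 7 other genes of the superfamily, 4 could be tested. For this list and those below, the rule called 19.9% of all tested genes higher and 23.4% lower with CoCl2. The shares with OD were 9.09% and 4.16%. KCNAB1, KCNAB2 and KCNAB3 encode beta subunits of potassium channels with an aldo-keto reductase fold. With CoCl2, KCNAB1 rose (log2 fold change 1.69, adjusted p = 5.99e-07), while KCNAB2 (-1.53, adjusted p = 1.76e-15) and KCNAB3 (-1.41, adjusted p = 0.0081) fell, and none of the 4 was called with OD. Mean levels were low for KCNAB1 (0.545 CPM in control and 1.77 CPM with CoCl2) and KCNAB3 (0.612 and 0.205 CPM). AKR1E2, a reductase of 1,5-anhydrofructose, had 22.2 to 22.6 CPM in control, at most 12.7 CPM with CoCl2 and 33.3 to 34.1 CPM with OD. The exposures thus lay on opposite sides of control without overlap: CoCl2 gave -0.94 and OD gave 0.59 on the log2 scale, neither past the fold threshold, and the difference was -1.53 between CoCl2 and OD (SE 0.077, adjusted p = 1.36e-27). AKR1C4, the liver form of the AKR1C group, had at most 2 counts in any library, AKR7L at most 6 and AKR1C8P at most 4.

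Other carbonyl-reducing enzymes, mostly short-chain dehydrogenases, were called in both directions. With CoCl2, 4 of 14 rose and 5 fell, with a median log2 fold change of -0.44, and with OD 1 rose and 1 fell. Calls made up 64.3% of the list with CoCl2, against 43.2% of all tested genes. The share with OD, 14.3%, was near the 13.3% of all tested genes. CBR3, a carbonyl reductase, had 3, 1 and 0 counts in control, 26, 19 and 55 with CoCl2 and 7, 9 and 3 with OD, and its CoCl2 to control ratio was 29.5 (exact 95% interval 11.2 to 111 for counting error). CBR3 was the gene called higher with OD, although its OD and control libraries overlapped. DHRS2 was called in opposite directions: it rose with CoCl2 (2.44, SE 0.083, adjusted p = 2.38e-36) and fell with OD (-3.67, SE 0.18, adjusted p = 2.77e-27), with mean levels of 8.49 CPM in control, 46.4 CPM with CoCl2 and 0.665 CPM with OD. DHRS4, a reductase of retinaldehyde and other carbonyls, fell with CoCl2 (-3.07, adjusted p = 1.88e-14), as did DHRS11 (-2.07, adjusted p = 7.76e-32).

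Aldehyde dehydrogenases, which oxidise aldehydes where aldo-keto reductases reduce them, fell more often than they rose. With CoCl2, 9 of 15 fell and 1 rose, with a median log2 fold change of -1.29, and with OD 1 fell. Among all tested genes 23.4% were called lower and 19.9% higher with CoCl2, and 4.16% lower with OD. ALDH1A3, which makes retinoic acid, fell with CoCl2 (-2.52, adjusted p = 1.29e-15), and the mitochondrial ALDH1B1 fell with both CoCl2 (-2.35, adjusted p = 3.91e-42) and OD (-1.03, adjusted p = 3.01e-26). The gene that rose was ALDH3A2, the fatty aldehyde dehydrogenase (1.48, adjusted p = 5.41e-40).

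Enzymes that supply NADPH were split as well. With CoCl2, 3 of 13 rose and 6 fell, where 19.9% of all tested genes were called higher and 23.4% lower. The largest falls were those of mitochondrial IDH2 (-2.28, adjusted p = 1.06e-32) and of MTHFD1 (-1.71, adjusted p = 1.61e-42), a folate enzyme. The genes that rose were TALDO1 of the pentose phosphate pathway (1.39, adjusted p = 5.37e-40), the cytosolic isocitrate dehydrogenase IDH1 (1.13, adjusted p = 2.14e-35) and the malic enzyme ME1 (1.08, adjusted p = 3.23e-34). With OD only MTHFD2 was called, higher (1.28, adjusted p = 1.05e-36).

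In the NRF2 pathway list, 21 of 24 genes rose and 1 fell with CoCl2, with a median log2 fold change of 2.28, and 5 of 24 rose with OD, with a median of 0.37. Among all tested genes 19.9% were called higher with CoCl2 and 9.09% with OD. CBR3 stands in this list too. HMOX1, the haem oxygenase that breaks down haem, rose by 5.09 with CoCl2 (SE 0.048, adjusted p = 2.12e-67) and by 1.17 with OD (SE 0.046, adjusted p = 5.00e-32). OSGIN1 rose by 4.07 and 1.18, and MAFF, a small MAF protein, by 4.08 and 1.70 in the same comparisons. SLC7A11, the cystine importer, rose by 3.43 with CoCl2 and by 2.12 with OD. The gene that fell with CoCl2 was the exporter ABCC3 (-1.31, adjusted p = 8.83e-23).

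In the joint list of polyol pathway and aldose metabolism genes other than AKR1B1, the genes that were called were called lower. With CoCl2, 4 of 6 tested genes fell and 0 rose, with a median log2 fold change of -1.80, and with OD 0 were called. The rule called 23.4% of all tested genes lower with CoCl2 and 13.3% in either direction with OD. The glycerate kinase GLYCTK (-2.72), the ketohexokinase KHK (-2.53), the triokinase TKFC (-2.06) and the glyoxalase HAGH (-1.54) fell, with adjusted p of 4.36e-41, 1.16e-16, 8.52e-33 and 2.85e-23. SORD, which turns sorbitol into fructose, had a log2 fold change of -0.53 with CoCl2 (adjusted p = 9.80e-11) and -0.64 with OD (adjusted p = 1.46e-13). Both passed the adjusted p but lay under the fold threshold, so SORD was not called. The calls therefore do not include the polyol pathway step that follows AKR1B1.

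Steroid and bile acid enzymes other than AKR1C and AKR1D1 were called 3 higher and 4 lower of 15 with CoCl2, and 2 higher and 1 lower with OD. Calls made up 46.7% of this list with CoCl2, near the 43.2% of all tested genes. With OD they made up 20.0%, against 13.3% of all tested genes. HSD17B2, which inactivates oestradiol and testosterone, rose with CoCl2 (1.52, adjusted p = 4.84e-17), and HSD17B8 fell with CoCl2 (-2.15, adjusted p = 3.17e-19) and OD (-1.13, adjusted p = 1.11e-11). CYP27A1, the sterol 27-hydroxylase, rose with CoCl2 (1.34, adjusted p = 6.83e-26) and OD (1.19, adjusted p = 3.57e-23). Of 16 retinoid genes, 2 rose and 4 fell with CoCl2 (37.5% called), and 3 rose and 4 fell with OD (43.75% called). Among them the retinoid binding protein CRABP2 (1.01 and 1.41) and the carotene oxygenase BCO1 (1.37 and 1.92) rose with both exposures, and the alcohol dehydrogenase ADH4 (-2.57 and -2.12) fell with both. Levels of ADH4 were low, with means of 0.776 CPM in control, 0.130 CPM with CoCl2 and 0.173 CPM with OD. BCO1 had a mean of 0.661 CPM in control.

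**Figure D5:**
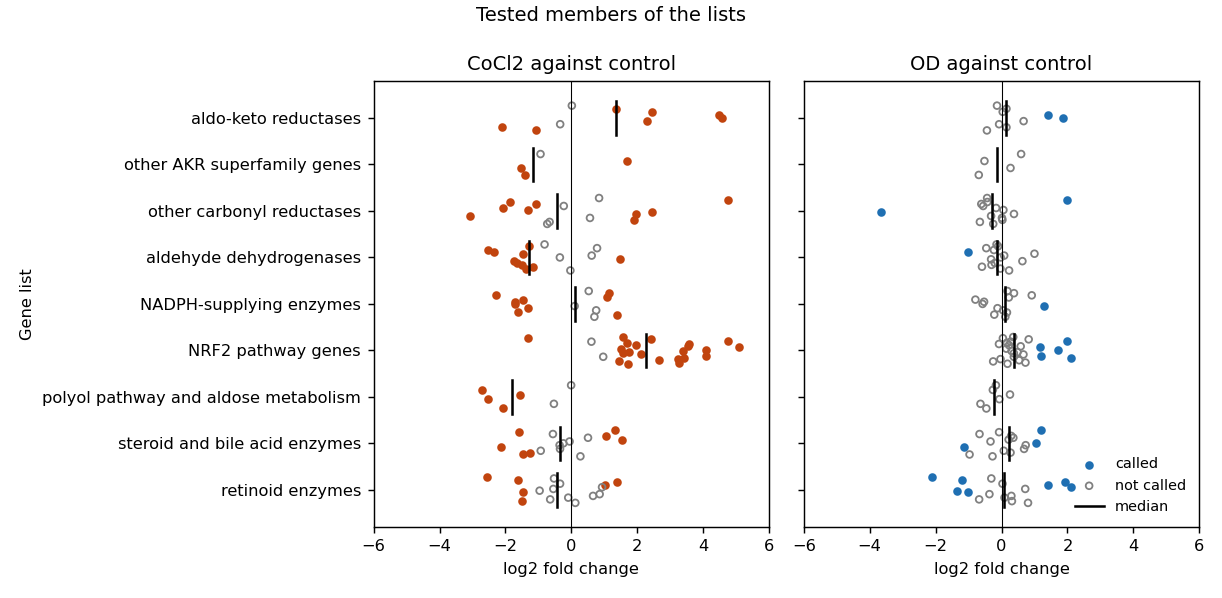
Each point is the log2 fold change of a tested gene in 1 of 9 lists, filled where the gene was called, and the vertical bars are list medians. With CoCl2 the NRF2 pathway list (median 2.28) and the aldo-keto reductases (1.36) lie to the right. The lists of polyol pathway and aldose metabolism (-1.80), aldehyde dehydrogenases (-1.29) and other AKR superfamily genes (-1.17) lie to the left.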

How the data were processed

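Libraries were poly(A)-selected and stranded, read single-end at 75 nucleotides. Per the labels and methods, the authors checked reads with FastQC 0.11.9, trimmed them with cutadapt 2.10, and mapped them on GRCh38.p13 with STAR 2.7.5b, with genes of GENCODE 34. The deposited table gives raw counts per symbol, whole numbers without normalization, in 9 columns, with 0 columns of samples left unused. The counting tool, its strand setting and what it did with reads matching more than 1 gene are not given in the sources used here, so near-identical copies are uncertain.

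TMM factors were computed with edgeR 4.0.16 (R 4.3.3), which also filtered low counts by its default rule and fitted a robust quasi-likelihood model over 9 libraries with 1 mean per condition, and p-values were adjusted by Benjamini-Hochberg over all 15944 tested genes. Replicates are described as biological. The p-values of the fit rest on the spread between replicates, moderated toward the spread of all tested genes. They therefore do not measure the spread of a gene's own 3 replicates per condition alone. Standard errors came from the F statistic. Ratios of low counts have exact 95% binomial intervals, and these intervals cover counting error only. Sums and shares had exact two-sided permutation tests. The fit was tested on simulated counts with 200 genes changed, of which edgeR recovered 200 with 1 false call. Far fewer genes changed there than the 43.2% called with CoCl2, so it cannot test the scaling of CoCl2 libraries.

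Coordinates came from GENCODE release 44 (10 of 10 symbols matched) and promoters from RefSeq. Coding identities came from global alignment in Biopython 1.88, and coding lengths leave out the stop codon.

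Members and gene lists were chosen with earlier results of these data known. Named genes are the 10 members, up to 4 called genes per list and comparison with the largest changes, and the 3 nearest profiles of each called member. Some values under this rule are not reported here. Outside it, SORD, IDH1, ME1, ABCC3, AKR1E2 with OD, AKR1C4, AKR7L, AKR1C8P, AKR7A2P1, AKR1C7P, SLC16A1 and single markers were chosen after their values were seen.

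Alternatives were RLE factors, totals without factors, tests on every gene or on those with 10 or more counts throughout, DESeq2 1.42.0 on 9 or 6 libraries, edgeR on 6 libraries, a replicate block, each library left out, the adjusted p alone, and summed copies.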

Additional observations from a re-analysis of the deposited data

How the results depend on the processing

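The calls of AKR1B10, AKR1C1, AKR1C2, AKR1C3 and AKR7A2 with CoCl2, and of AKR1C1 and AKR1C2 with OD, kept their direction and side of the threshold in all 17 alternatives run on single genes. Log2 fold changes with CoCl2 ranged from 3.97 to 4.52 for AKR1C1, 4.08 to 4.64 for AKR1C2, 1.79 to 2.43 for AKR1C3, 1.95 to 2.58 for AKR1B10 and -2.62 to -2.03 for AKR7A2. Scaling by library size alone moved the median of all genes from -0.05 to -0.55 with CoCl2, from -0.05 to -0.60 for CoCl2 against OD and from -0.01 to 0.03 with OD, and the share of calls that were higher from 46.0% to 23.9%, from 42.4% to 18.3% and from 68.6% to 72.7%. Under it AKR1B1 was 0.85 with CoCl2 and 0.66 against OD, both no longer called, AKR7A3 was -1.18 against OD and called, and AKR1A1 turned to -0.49 with CoCl2 and -0.39 against OD. The summed CPM difference of the 10 members was 450 (CoCl2), 44.5 (OD) and 406 (CoCl2 against OD); library size alone gave 290, 57.0 and 233, and RLE factors gave 467 and 422 for the comparisons with CoCl2. Small changes reversed: AKR1A1 with CoCl2 was -0.050 without a count filter and -0.013 with at least 10 counts, and leaving out single libraries gave -0.042 to 0.092. Leaving out single libraries gave -0.089 to 0.17 for AKR1B10 with OD, below 0 without control replicate 2 or OD replicate 3, and -0.27 to 0.094 for AKR1D1 with OD, above 0 without the same libraries. AKR1A1 was below 0 without control replicate 2 or 3. The adjusted p alone called 6 members with OD and 13260, 10466 and 13311 genes in all (CoCl2, OD, CoCl2 against OD), where the fold threshold left 6891, 2113 and 6580, and at least 10 counts left 1134 genes with OD. With the copies summed 1 entry was called with OD, since 2 called genes became 1. Members called with CoCl2 were 6 to 8 over the other tools, filters and scalings, and the call added by DESeq2 and without a filter was AKR1B15. The same replicate numbers did not pair the samples: deviations from group means correlated between -0.0049 and 0.038 over 9 same-number pairs and between -0.047 and 0.025 over 18 others. A replicate block left 7, 2 and 6 members called and 6901, 2115 and 6568 genes. Genes near 20 counts, such as AKR1D1 and AKR7A3, carried standard errors of 0.23 to 0.33, and AKR1C1 0.056 to 0.083.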

Other observations

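AKR7A2P1 and AKR1C7P, pseudogenes of the family, are not among the members and were looked at after their values were seen. AKR7A2P1 is a processed pseudogene of AKR7A2 at chr1:112923423-112924337 on the plus strand, inside the lactate transporter gene SLC16A1, which lies on the minus strand. It had 5, 3 and 1 counts in control, 56, 26 and 30 with CoCl2, and 12, 8 and 7 with OD, so that it was higher with CoCl2 (ratio of summed counts 14.7, exact 95% interval 7.48 to 33.0 for counting error) where its parent gene AKR7A2 was lower. None of its 75-nucleotide windows was found in a transcript of another gene. SLC16A1 itself had 160 to 173 CPM in control, 271 to 297 CPM with CoCl2 and 217 to 224 CPM with OD. AKR1C7P, a pseudogene of the AKR1C cluster at chr10:5275173-5288470 on the minus strand, had 0 counts in each control library, 6, 9 and 14 with CoCl2, and 0, 1 and 1 with OD. Of its windows 59.81% were shared with other transcripts and 79.22% of its exonic bases lay in exons of another annotated gene on the same strand. The part of shared reads and of SLC16A1 in these counts was not tested.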
